A study of Mus musculus with 10 samples.

Results

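Zinc buffering and transport were examined through 6 genes of the 43432 counted in LPS-activated mouse macrophages. The genes were chosen by name for their roles, with earlier results of these data known. They were the metallothioneins Mt1 and Mt2 and the metal-responsive transcription factor Mtf1. The transporters were the zinc exporter Slc30a1 (ZnT1) and the zinc importers Slc39a1 (ZIP1) and Slc39a14 (ZIP14). RNA was sequenced from RAW264.7 cells, an immortalized mouse macrophage line, in 5 conditions with 2 libraries each. All cells received 0.5% DMSO as solvent. The resting cells received DMSO alone, the activated controls received DMSO and LPS at 1 µg/mL (DMSO + LPS), and the treated cells received **1** at 32, 10 or 3.2 µM with the same LPS. Compound **1** is a monounsaturated fatty acid with an α,β-unsaturated ketone, found in a marine cyanobacterial mat. It was added 1 h before LPS, and RNA was taken at 12 h. No condition held **1** without LPS. The labels number the libraries as biological replicates of a single cell line, and whether they came from separate cultures is not given in the sources used here, so each p-value measures the spread between these libraries.

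Metallothioneins are small cysteine-rich proteins that bind zinc and copper and release zinc when their thiols are oxidized. MTF1 senses free zinc, binds metal response elements (MREs) in promoters, and drives Mt1, Mt2 and Slc30a1, which makes these transcripts a common readout of the free zinc of a cell. ZnT1 moves zinc out of the cytosol across the plasma membrane, while ZIP1 and ZIP14 move it in. In macrophages, LPS is known to alter the traffic of zinc, and electrophiles that react with thiols can free zinc from proteins.

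The promoters of the 3 genes with MRE matches are shown because those matches are what Mt1, Mt2 and Slc30a1 have in common in sequence. They are taken from RefSeq on GRCm38.p6 and run from 250 bases before to 50 after the start site given there, on the + strand. That site differs from the GENCODE gene start given below. Capitals mark the MRE core, searched as TGCACNC or TGCGCNC on both strands, so that a match on the opposite strand reads as its reverse complement.
Mt1, chr8:94178839-94179138: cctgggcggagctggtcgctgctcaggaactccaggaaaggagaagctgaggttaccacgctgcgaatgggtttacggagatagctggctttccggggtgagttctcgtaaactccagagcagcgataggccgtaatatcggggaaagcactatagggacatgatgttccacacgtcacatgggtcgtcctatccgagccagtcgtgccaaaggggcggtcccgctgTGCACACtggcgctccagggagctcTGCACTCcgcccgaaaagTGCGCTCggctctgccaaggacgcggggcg
Mt2, chr8:94172368-94172667: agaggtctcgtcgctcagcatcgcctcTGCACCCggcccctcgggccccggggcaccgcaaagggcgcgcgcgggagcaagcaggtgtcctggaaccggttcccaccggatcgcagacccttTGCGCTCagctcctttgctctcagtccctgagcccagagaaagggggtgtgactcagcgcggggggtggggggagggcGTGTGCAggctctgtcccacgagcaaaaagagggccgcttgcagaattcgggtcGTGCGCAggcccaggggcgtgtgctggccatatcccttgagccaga
Slc30a1, chr1:191906531-191906830: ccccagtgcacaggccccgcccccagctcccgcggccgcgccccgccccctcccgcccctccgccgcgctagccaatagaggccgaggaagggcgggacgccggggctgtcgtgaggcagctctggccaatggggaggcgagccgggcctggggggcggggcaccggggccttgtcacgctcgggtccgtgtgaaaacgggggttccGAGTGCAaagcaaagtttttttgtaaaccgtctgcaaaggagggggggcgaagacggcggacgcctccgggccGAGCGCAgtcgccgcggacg

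The Mt1 promoter held 3 matches, that of Mt2 held 4 and that of Slc30a1 held 2. None of them overlapped another. Of 32851 mouse promoters of the same length, 25.7% held at least 1 match, 7.11% at least 2, 1.97% at least 3 and 0.517% at least 4. The promoters of Mtf1 and Slc39a1 held 0. The core of the antioxidant response element, searched as TGACNNNGC on both strands, was found once in Mt2 (TGACTCAGC), once in Slc30a1 (TGACAAGGC) and once in Slc39a1 (TGACTGAGC), but not in Mt1 or Mtf1, and 12.4% of all promoters held at least 1. These are matches of letters. Binding was not measured.

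Mt1 (chr8:94179082-94180327, + strand) and Mt2 (chr8:94172664-94173568, + strand) are neighbors on GRCm38. Their transcripts are short, between 549 and 1085 nt for Mt1 and between 388 and 511 nt for Mt2 in GENCODE M21. No stretch of 50 bases in their transcripts was shared with another gene, each other included. Of the transporters, Slc39a1 (chr3:90248172-90253612, + strand) shares 504 of its 2315 stretches of 50 bases (21.8%) with Slc39a1-ps, a processed copy that held between 1 and 21 counts per library. Slc30a1 lies at chr1:191906767-191913247 (+ strand), Mtf1 at chr4:124802104-124849800 (+ strand) and Slc39a14 at chr14:70303469-70351425 (- strand). Genes on the other strand overlap Mt2 (Gm45774), Mtf1 (1110065P20Rik) and Slc30a1 (1700034H15Rik). Whether the counting used the strand is not given in the sources used here. 1110065P20Rik and 1700034H15Rik held at most 370 and 51 counts, and Gm45774 was not found among the counted genes.

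Library totals lay between 45966803 and 58976377 counts, and every member passed the filter on low counts. Levels are given in CPM, counts scaled to a common library size with edgeR's TMM factors. A gene was called when it changed at least 1.5-fold (0.58 on the log2 scale) with a Benjamini-Hochberg adjusted p under 0.05 in edgeR's quasi-likelihood test, over all 14172 genes tested and all 10 libraries. The tests rest on spread pooled across conditions and genes, because the smallest p that an exact permutation of 2 libraries against 2 allows is 0.333. The labels were checked with Nqo1, an NAD(P)H quinone oxidoreductase, which stood at 2.65 and 2.58 CPM in DMSO + LPS and at 16.3 and 16.1 CPM at 32 µM, and with Il1b, a cytokine, which stood at 1.16 and 1.14 CPM in resting cells and at 1529 and 1541 CPM in DMSO + LPS. All 8 macrophage markers were present at 121 CPM or more in each library, and T cell markers reached at most 0.0645 CPM.

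Some libraries stood apart in ways that touch the metallothioneins. The replicates of a condition differed in how much RNA of short transcripts they held. A short-transcript score, the median log2 CPM relative to the mean of all libraries over 1408 tested genes whose longest transcript is under 1000 nt, leaves out the 6 members and genes of ribosomal proteins. The pairs of replicates scored -0.04 and -0.36 without LPS, 0.00 and 0.09 with LPS alone and, with **1** added, 0.18 and 0.13 (3.2 µM), 0.26 and -0.10 (10 µM), and 0.17 and -0.19 (32 µM). Replicate 1 at 10 µM and replicate 1 at 3.2 µM also held transcripts of the 4 epithelial markers (Krt8, Krt18, Epcam and Cdh1), 38.2 and 5.78 CPM in sum, against at most 0.0850 CPM in the other 8 libraries. The 4 fibroblast markers were highest in replicate 1 at 10 µM too, at 4.43 CPM in sum.

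Per length of exon, the metallothioneins were the most abundant of the 6 transcripts in DMSO + LPS. RPKM, the CPM divided by the kilobases of exon, averaged 425 ± 31.4 for Mt2, 213 ± 14.8 for Mt1, 140.4 ± 1.93 for Slc39a1, 8.71 ± 0.0960 for Slc39a14, 7.49 ± 0.0701 for Mtf1 and 6.94 ± 0.241 for Slc30a1 (SD, n = 2). In that condition no gene's libraries overlapped those of the next. In resting cells the means kept this order, but the libraries of Mt1 (211 and 90.1 RPKM) overlapped those of Mt2 (353 and 168 RPKM). At 32 µM the libraries of Mt1 (272 and 104 RPKM) overlapped both those of Mt2 (517 and 220 RPKM) and those of Slc39a1 (125 and 116 RPKM). Slc30a1, at 10.7 and 10.1 RPKM, stood above Mtf1, at 8.04 and 8.32 RPKM, and overlapped Slc39a14, at 10.5 and 10.8 RPKM. With the longest transcript as the length, the order was the same in each condition except 10 µM, where Mtf1 took the place of Slc30a1.

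**Figure D1:**
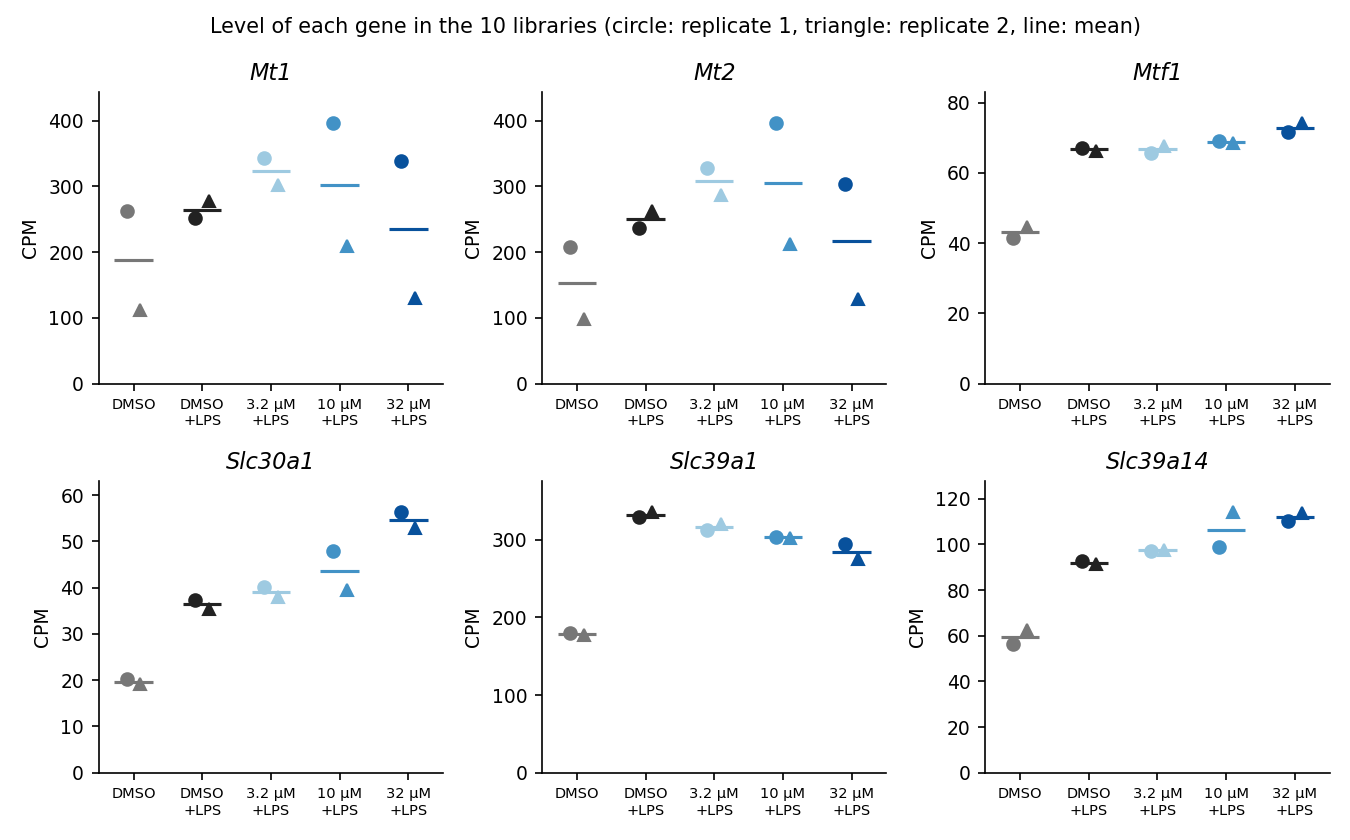
Level of each of the 6 genes in CPM (vertical axis, from 0) in the 10 libraries, by condition (horizontal axis), where circles are replicate 1, triangles replicate 2 and lines the mean of both. Mtf1 and the transporters stood higher in both DMSO + LPS libraries than in both DMSO libraries and their replicates lay close, whereas Mt1 and Mt2 spread widely within DMSO, 10 µM and 32 µM.

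The first comparison asked how activation alone moved the zinc genes. LPS raised the sensor and all 3 transporters, and did not give a called change of either metallothionein. Of the 6 members, 4 were called, all of them higher, where 28.2% of all genes tested (3995 of 14172) were called in either direction. The median log2 change was 0.67 over the members and 0.00 over all genes tested.

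Mtf1, the zinc sensor, stood at 41.5 and 44.7 CPM in DMSO and at 67.1 and 66.2 CPM in DMSO + LPS. Both activated libraries lay above both resting ones. The log2 change was 0.63 (SE 0.05, adjusted p = 1.96e-05 by edgeR's quasi-likelihood test). Slc30a1, the exporter, rose from 20.3 and 19.1 CPM to 37.3 and 35.5 CPM, with no overlap. Its log2 change was 0.89 (SE 0.09, adjusted p = 1.02e-04 by the same test).

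The importers rose as well. Slc39a1 had 180.3 and 177 CPM in DMSO and 329 and 335 CPM in DMSO + LPS, a log2 change of 0.89 (SE 0.05, adjusted p = 1.56e-06 by edgeR). Slc39a14, a transporter of zinc, iron and manganese, had 56.5 and 62.3 CPM in DMSO and 92.7 and 91.2 CPM in DMSO + LPS, a log2 change of 0.63 (SE 0.07, adjusted p = 1.83e-04 by edgeR). In neither gene did the conditions overlap. Mtf1 and Slc39a14 lay near the fold cutoff. Without replicate 1 of DMSO their log2 changes were 0.57 and 0.56 and 2 members were called. Scaling by library size alone moved the median of all genes to -0.20, and the 2 genes to 0.42 on that scale, below the cutoff.

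Mt1 gave 263 and 112 CPM in DMSO and 252 and 278 CPM in DMSO + LPS. The first resting library lay between the activated ones, so the conditions overlapped. The log2 change was 0.50 (SE 0.52) with a 95% interval from -0.72 to 1.71 and an adjusted p of 0.470 by edgeR. Mt2 gave 207 and 98.6 CPM in DMSO and 237 and 263 CPM in DMSO + LPS, without overlap, and a log2 change of 0.71 (SE 0.48, interval from -0.40 to 1.81, adjusted p = 0.257 by edgeR). The intervals hold both a fall and a rise of more than 1.5-fold for Mt1. Replicate 2 of DMSO, the library with the lowest Mt1, Mt2 and short-transcript score, decided the sign for Mt1, whose log2 change without it was -0.0083. That of Mt2 was 0.25 without replicate 2 of DMSO and 1.34 without replicate 1, with adjusted p of 0.766 and 0.0904 by edgeR.

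With the score as a term in the fit, the intervals of the metallothioneins became several times narrower. The LPS change of Mt1 was then -0.20 (SE 0.10, interval from -0.42 to 0.02) and that of Mt2 0.05 (SE 0.08, interval from -0.12 to 0.22), neither of them called. The called transporters and Mtf1 stayed called, at 0.66 for Mtf1, 0.78 for Slc30a1, 0.86 for Slc39a1 and 0.72 for Slc39a14. The fitted slope, the log2 change per unit of score, was 3.36 for Mt1 and 3.07 for Mt2, the 95.8 and 95.5 percentile of all genes tested. For Mtf1, Slc30a1, Slc39a1 and Slc39a14 it was -0.13, 0.43, 0.13 and -0.37. The score leaves 4 residual degrees of freedom. It also differed between conditions, with both DMSO libraries below both DMSO + LPS libraries. A change that Mt1 or Mt2 shared with short transcripts would therefore be taken up by the score. What made the short transcripts differ between replicates was not tested.

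**Figure D2:**
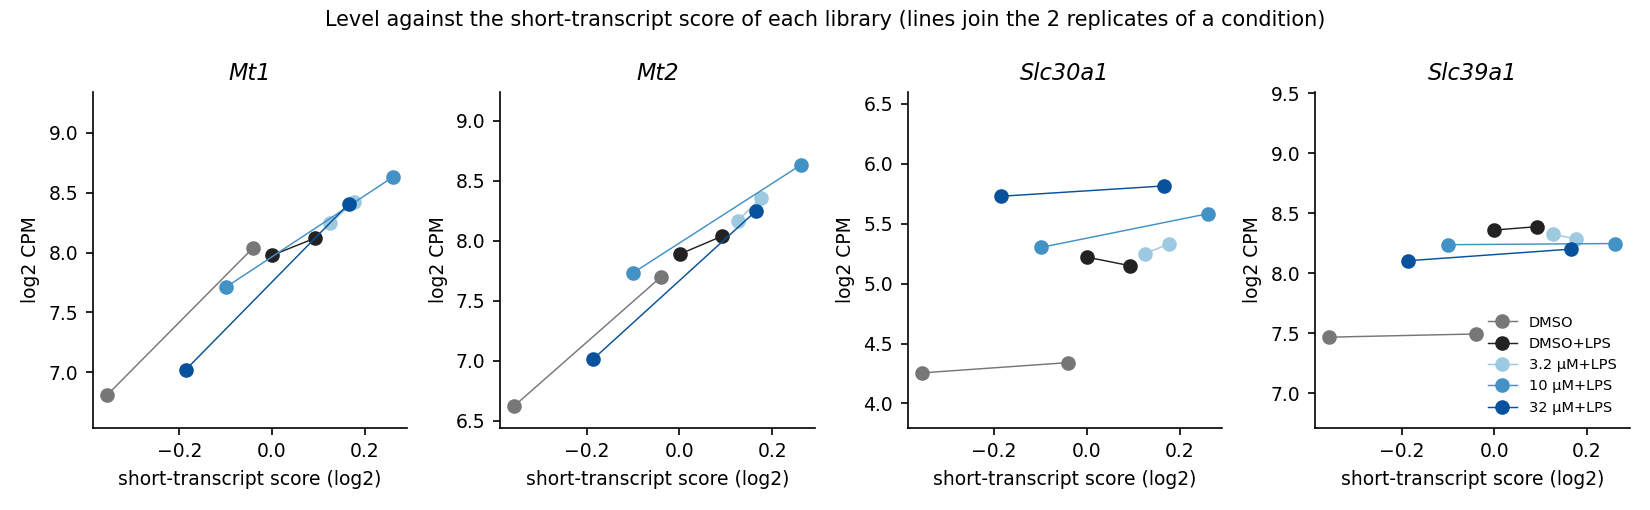
Level in log2 CPM (vertical axis, each panel spanning the same range) of Mt1, Mt2, Slc30a1 and Slc39a1 against the short-transcript score of the library (horizontal axis, log2), with a line joining the 2 replicates of a condition. Mt1 and Mt2 climb with the score within each condition, whereas Slc30a1 and Slc39a1 change far less along it, with every condition set apart for Slc39a1 and 3.2 and 10 µM overlapping for Slc30a1.

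The second comparison asked what **1** did to these genes in activated cells. At 32 µM, Slc30a1 was the 1 member of 6 called, where 4.18% of all genes tested (592 of 14172) were called. The median log2 change was -0.02 over the members and 0.01 over all genes tested. The 3 doses are each set against the same 2 DMSO + LPS libraries, so their changes are not independent of each other.

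Slc30a1 stood at 37.3 and 35.5 CPM in DMSO + LPS, at 40.2 and 38.1 CPM at 3.2 µM, at 47.9 and 39.4 CPM at 10 µM, and at 56.2 and 53.0 CPM at 32 µM. Each treated library lay above both DMSO + LPS libraries, 3.2 and 10 µM overlapped, and the 32 µM libraries lay above all others. The log2 changes were 0.11 (SE 0.09, adjusted p = 0.999) at 3.2 µM, 0.26 (SE 0.09, adjusted p = 0.280) at 10 µM and 0.59 (SE 0.09, adjusted p = 0.00541) at 32 µM by edgeR's quasi-likelihood test. The change at 32 µM lay on the fold cutoff. It ranged from 0.54 to 0.63 over 21 alternative settings, with adjusted p from 1.13e-06 to 0.0609, and the call was lost in 10 of them. In 9 the change fell below 1.5-fold, and in 1 the cutoff was raised to 2-fold. Where the adjusted p was highest, it missed its threshold too. Leaving out any of 4 libraries (replicate 2 of DMSO, DMSO + LPS or 10 µM, or replicate 1 of 32 µM) left 0 members called. Between 32 and 10 µM the log2 difference was 0.32 (SE 0.09, adjusted p = 0.166), and without replicate 1 at 10 µM, the library with the most epithelial reads, it was 0.47 (adjusted p = 0.0295), below the fold cutoff in each case.

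The importers moved in opposite directions and by less than the fold cutoff. Slc39a14 had 92.7 and 91.2 CPM in DMSO + LPS, 97.0 and 97.6 CPM at 3.2 µM, 99.0 and 114 CPM at 10 µM, and 110.4 and 114 CPM at 32 µM. All treated libraries lay above the DMSO + LPS libraries, while 10 and 32 µM overlapped. Its log2 change at 32 µM was 0.29 (SE 0.07, interval from 0.12 to 0.46, adjusted p = 0.0501 by edgeR). With the short-transcript score in the fit it was 0.27 (SE 0.04, adjusted p = 1.17e-04 by edgeR).

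Slc39a1 had 329 and 335 CPM in DMSO + LPS, 312 and 320.4 CPM at 3.2 µM, 304 and 302 CPM at 10 µM, and 294 and 275 CPM at 32 µM. No 2 of these conditions overlapped. The log2 change at 32 µM was -0.22 (SE 0.05, adjusted p = 0.0213 by edgeR), past the p threshold but smaller than 1.5-fold. Both 32 µM libraries still lay above the resting ones.

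Mtf1 was nearly level over the doses, at 67.1 and 66.2 CPM in DMSO + LPS, 65.8 and 67.7 CPM at 3.2 µM, 69.2 and 68.4 CPM at 10 µM, and 71.6 and 74.1 CPM at 32 µM. Its log2 change at 32 µM was 0.13 (SE 0.05, interval from 0.01 to 0.24, adjusted p = 0.180 by edgeR). The interval holds no change as large as 1.5-fold. With the short-transcript score in the fit the change was 0.12 (SE 0.04, adjusted p = 0.0338 by edgeR), past the p threshold but smaller than 1.5-fold.

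Mt1 had 343 and 303 CPM at 3.2 µM, 396 and 209.5 CPM at 10 µM, and 339 and 130.0 CPM at 32 µM, against 252 and 278 CPM in DMSO + LPS. Mt2 had 328 and 287 CPM at 3.2 µM, 396 and 213 CPM at 10 µM, and 304 and 129 CPM at 32 µM, against 237 and 263 CPM. For both genes the 3.2 µM libraries lay above DMSO + LPS, and at 10 and 32 µM replicate 1 lay above and replicate 2 below the controls.

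The log2 change at 32 µM was -0.18 for Mt1 (SE 0.52, interval from -1.38 to 1.03, adjusted p = 0.920) and -0.20 for Mt2 (SE 0.47, interval from -1.30 to 0.89, adjusted p = 0.894) by edgeR. These intervals hold changes of 1.5-fold in either direction, so at this spread such changes were not detectable, and without replicate 2 at 32 µM the values turned to 0.36 and 0.28. With the score in the fit, the changes at 32 µM were -0.14 for Mt1 (SE 0.09, interval from -0.33 to 0.06, adjusted p = 0.305) and -0.15 for Mt2 (SE 0.07, interval from -0.30 to -0.01, adjusted p = 0.126) by edgeR. Those intervals hold no change of 1.5-fold apart from what the score takes up. In the same fit at 32 µM, Slc30a1 was 0.61 (SE 0.06, adjusted p = 2.46e-06) and Slc39a1 -0.21 (SE 0.03, adjusted p = 1.69e-04) by edgeR. That of Slc39a1 was smaller than 1.5-fold.

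**Figure D3:**
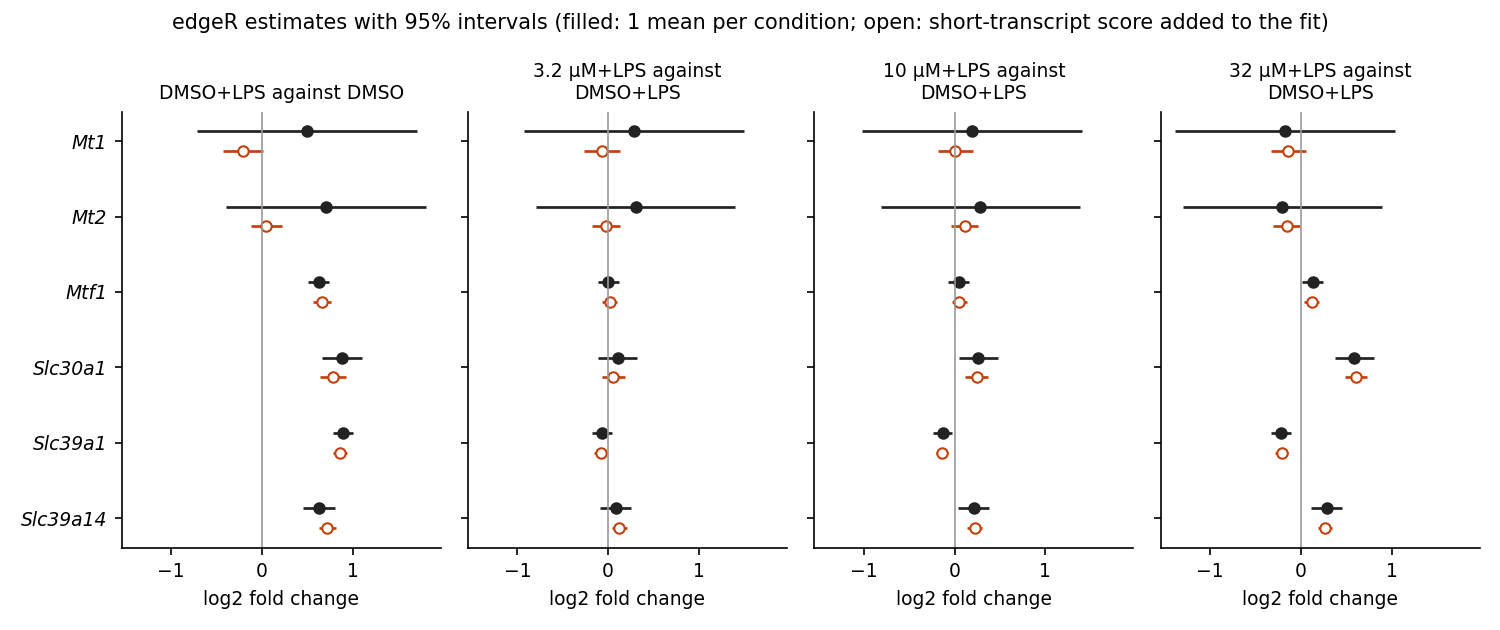
Log2 fold change (horizontal axis) with its 95% interval for each gene in 4 comparisons, from edgeR with 1 mean per condition (filled) and with the short-transcript score added (open). The intervals of Mt1 and Mt2 span 0 widely without the score and are narrow and near 0 with it. Those of Slc30a1, Slc39a14 and Mtf1 lie to the right of 0 under LPS and again at 32 µM in both fits.

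At 10 µM, edgeR's quasi-likelihood test called 0 of 6 members, where it called 0.861% of all genes. At an unadjusted p under 0.05, 3 members passed without regard to size (Slc30a1, Slc39a14 and Slc39a1), against 12.1% of all genes tested. DESeq2, the likelihood ratio test and edgeR on the 4 libraries compared also called 0 members. Without replicate 1 at 10 µM, the library with the highest Mt1, Mt2 and epithelial reads, the log2 change turned from 0.19 to -0.34 for Mt1 and from 0.29 to -0.23 for Mt2, and that of Slc30a1 went from 0.26 to 0.12. With the short-transcript score in the fit of all 10 libraries, the changes at 10 µM were 0.0071 for Mt1 (SE 0.09, adjusted p = 0.978) and 0.11 for Mt2 (SE 0.07, adjusted p = 0.355) by edgeR. In that fit Slc30a1 was 0.24 (adjusted p = 0.0124), Slc39a14 0.22 (adjusted p = 0.00122) and Slc39a1 -0.14 (adjusted p = 0.0104), each smaller than 1.5-fold. The part of the epithelial reads in these levels was not tested.

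At 3.2 µM the same edgeR test called 0 members and 0% of all genes. No member passed an unadjusted p under 0.05, whereas 4.24% of all genes did. DESeq2 called 8 genes, the likelihood ratio test 3 and edgeR on the 4 libraries compared 66, with 0 members among them. In the fit of those 4 libraries, Mt1 (log2 change 0.28, adjusted p = 0.0257) and Mt2 (log2 change 0.30, adjusted p = 0.0254) passed the p threshold by edgeR with changes smaller than 1.5-fold. With the short-transcript score in the fit of all 10 libraries both signs turned, to -0.071 for Mt1 (adjusted p = 0.812) and -0.023 for Mt2 (adjusted p = 0.931). Between 32 and 10 µM, 0 members were called, where 1.32% of all genes were. Without the score, only Slc30a1 passed an unadjusted p under 0.05, as did 12.5% of all genes, and DESeq2 and the other edgeR tests called 0 members too. With the score in the fit the log2 difference was 0.37 for Slc30a1 (SE 0.06, adjusted p = 7.40e-04), -0.27 for Mt2 (SE 0.07, adjusted p = 0.0268) and -0.078 for Slc39a1 (SE 0.03, adjusted p = 0.152) by edgeR, each smaller than 1.5-fold.

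The third comparison set activated cells with 32 µM of **1** against resting cells. Of the 6 members, 4 were called higher, where 27.1% of all genes were called in either direction. The log2 difference was 1.47 for Slc30a1 (SE 0.09), 0.92 for Slc39a14 (SE 0.07), 0.76 for Mtf1 (SE 0.05) and 0.67 for Slc39a1 (SE 0.05), with adjusted p of 2.25e-05 or less by edgeR. Slc30a1 was 2.78-fold above its resting level. Mt1 and Mt2 overlapped between these conditions, with log2 differences of 0.32 (SE 0.52, adjusted p = 0.649) and 0.50 (SE 0.47, adjusted p = 0.424). Without replicate 1 at 32 µM they were -0.53 and -0.25, and without replicate 2 of DMSO that of Mt1 was -0.20. With the short-transcript score in the fit the difference was -0.34 for Mt1 (SE 0.10, interval from -0.56 to -0.13, adjusted p = 0.00861 by edgeR), past the p threshold but smaller than 1.5-fold, and -0.10 for Mt2 (SE 0.08, interval from -0.27 to 0.06, adjusted p = 0.258 by edgeR).

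The members fell into 2 patterns across the libraries. Over all 10, log2 CPM of Mt1 and Mt2 had a Pearson r of 0.984, and Mtf1 correlated with Slc30a1, Slc39a1 and Slc39a14 at 0.950, 0.913 and 0.974. Between the metallothioneins and the other 4 genes r lay between 0.249 and 0.653. These values describe libraries that share conditions and short-transcript content.

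The ratio of Mt1 to Mt2 counts was 1.27 and 1.14 in resting cells and 1.06 and 1.06 after LPS alone. With **1** it was 1.05 and 1.05 (3.2 µM), 1.00 and 0.985 (10 µM), and 1.11 and 1.01 (32 µM). Both resting libraries lay above all 8 activated ones. The counting error of a ratio was at most 0.03 on the log2 scale, smaller than the difference between replicates of DMSO or of 32 µM. This ratio was examined after the values had been seen and was not tested.

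Among 9560 other genes with a mean of at least 5 CPM, those most like Mt1 over the 10 libraries were Atp5mpl (r = 0.999), Rps21 (r = 0.998) and Atp5e (r = 0.997). Those most like Mt2 were Cox7a2 (r = 0.997), Ndufa2 (r = 0.996) and 1810022K09Rik (r = 0.995). The longest transcripts of these 6 genes measure 612, 481, 1697, 659, 572 and 1174 nt, so that 4 are under 1000 nt, against 4.39% of genes at this level with a known length. Most like Slc30a1 were Prr13, Rmc1 and Blvrb, with r of 0.995, 0.995 and 0.994, and most like Slc39a14 were Sertad2, Il7r and Adss, with r of 0.995 for each. Over the 8 libraries that received LPS, with or without **1**, 1 of the 3 genes stayed among the nearest 3 for Mt1 and 1 for Mt2, and 0 for Slc30a1 and Slc39a14.

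The other zinc transporters were taken from the 10 Slc30 exporters and the 14 Slc39 importers, of which 6 and 13 were tested. LPS raised 2 of the 6 exporters, Slc30a1 and Slc30a6, and lowered 0, a share near the 28.2% of all genes called in this comparison. Slc30a6, a family member of the secretory pathway, went from 19.6 and 19.4 CPM to 29.4 and 31.2 CPM (log2 change 0.64, SE 0.07, adjusted p = 1.19e-04 by edgeR). The median change was 0.38 over the 6 exporters, against 0.00 over all genes.

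LPS raised 3 of the 13 importers, Slc39a1, Slc39a14 and Slc39a4, and lowered 1, Slc39a11, again a share near the 28.2% of all genes. Slc39a4, the intestinal zinc importer, was low, at 0.612 and 0.493 CPM in DMSO and 2.88 and 3.58 CPM in DMSO + LPS (log2 change 2.54, SE 0.24, adjusted p = 5.45e-05 by edgeR). Slc39a11 went from 64.6 and 64.3 CPM to 41.2 and 43.2 CPM (log2 change -0.61, SE 0.06, adjusted p = 8.01e-05 by edgeR), and Cog1, Sstr2 and Gm16487 overlap it. The median change was 0.37 over the 13 importers.

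At 32 µM, 1 of the 6 exporters (Slc30a1) was called and 0 of the 13 importers, where 4.18% of all genes were, and DESeq2 called 0 of the members. The medians were 0.04 for exporters and 0.07 for importers. Slc39a4 had 5.33 and 4.93 CPM at 32 µM, above its DMSO + LPS libraries, and a log2 change of 0.67 (SE 0.21, adjusted p = 0.102 by edgeR), which with the short-transcript score in the fit was 0.72 (SE 0.15, adjusted p = 0.00362 by edgeR) and past both thresholds. Slc39a8 (ZIP8), an importer on the cell surface and lysosome, had 13.1 and 12.7 CPM in DMSO + LPS and 8.70 and 9.73 CPM at 32 µM, without overlap, and a log2 change of -0.49 (SE 0.09, adjusted p = 0.0132 by edgeR) that stayed below the fold cutoff. Slc39a7 (ZIP7), which releases zinc from the endoplasmic reticulum, varied with the replicates, at 20.1 and 2.21 CPM at 10 µM, and Gm20427 overlaps it on the same strand.

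**Figure D4:**
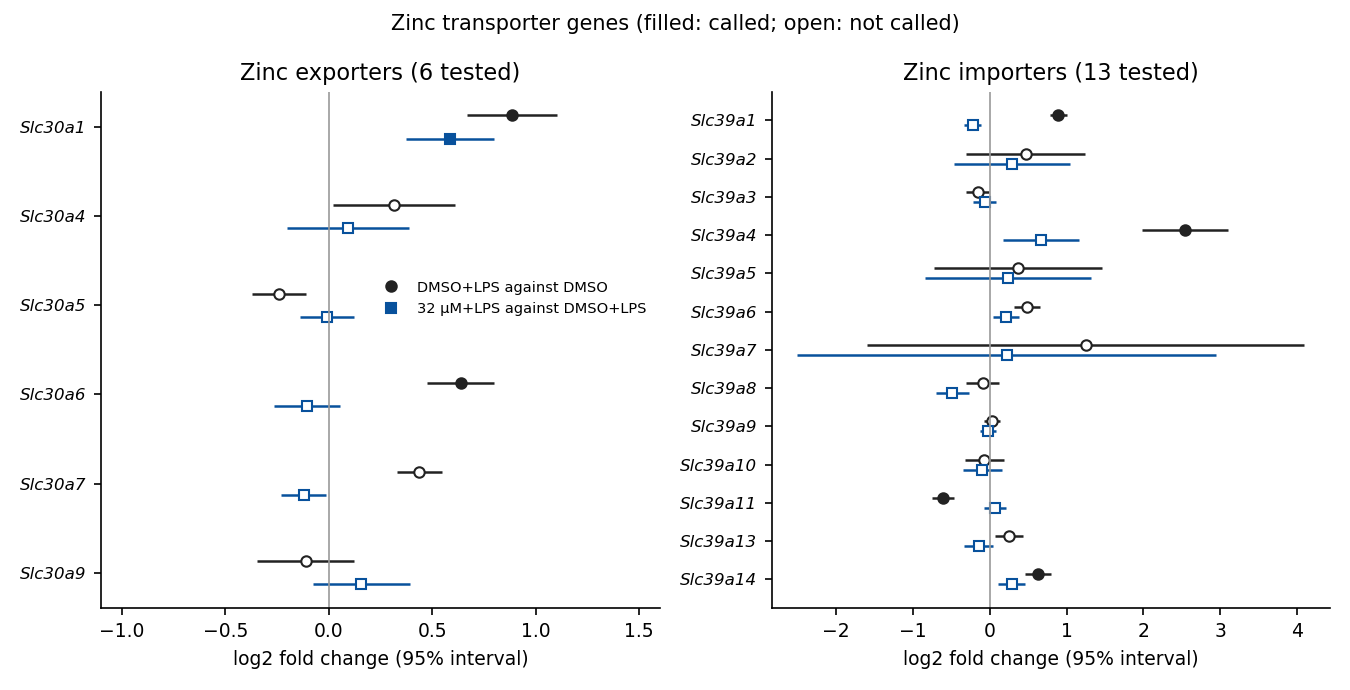
Log2 fold change with 95% interval (horizontal axis) for the tested zinc exporters and importers under LPS (circles) and at 32 µM of **1** in LPS-activated cells (squares), where filled symbols mark called genes. Slc30a1 is the 1 gene with both symbols filled, and the interval of Slc39a7 is the widest.

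The brain and skin metallothioneins were close to absent. Mt3 lay between 0 and 0.511 CPM over the 10 libraries and Mt4 between 0 and 0.150 CPM, and Mt4 was not tested. Mt3 was called higher at 32 µM than in resting cells, on 25 and 4 counts against 0 and 2. Slc30a2, Slc30a3, Slc30a8 and Slc30a10 were at most 0.107 CPM in every library and were not tested, as was Slc39a12, at most 0.157 CPM. In bulk RNA, fewer cells with a transcript and less of it per cell cannot be told apart.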

How the data were processed

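RNA-seq of RAW264.7 cells covered 10 libraries in 5 conditions, and no library was left out. The authors prepared poly(A)-selected, directional libraries and deposited unnormalized counts of reads for each mouse Ensembl gene. The submitters' processing notes name Trimmomatic, FastQC, STAR, DESeq2 and mm10, with no role or version. The counting tool, its use of the strand and the annotation are not given in the sources used here. Groups and replicate numbers came from the labels.

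The members and lists were chosen with earlier results of these data known. Symbols were found for 42462 of 43432 identifiers in GENCODE M21 (GRCm38), and promoters for 5 of the 6 members in RefSeq. Of 43432 genes, 19292 had 0 counts throughout. Genes were kept by filterByExpr (minimum count 10), scaled by TMM and fitted in edgeR 4.0.16 (R 4.3.3) with 5 condition means and 5 residual degrees of freedom, with a common biological coefficient of variation of 0.128. Quasi-likelihood F tests with Benjamini-Hochberg adjustment gave each comparison. The 32 µM comparison was also run on simulated counts with independent noise, which held no difference in short transcripts between libraries. Replicates differed beyond counting noise in each condition, and unequally. The chi-square per gene, 1 for sampling alone, was 3.37 at 3.2 µM, 6.23 in DMSO + LPS, 40.2 in DMSO, 50.3 at 10 µM and 190 at 32 µM. Alternatives were DESeq2 1.42.0, its size factors, library size alone, other filters, a 2-fold cutoff, a likelihood ratio test, the 4 libraries compared, a replicate block, the short-transcript score, and leaving out each library. Named genes were the 6 members, called and first listed genes of the fixed lists, and the 3 genes most like a member. Slc39a8 and Slc39a7, and the ratio of Mt1 to Mt2, were chosen after their values were seen.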

Additional observations from a re-analysis of the deposited data

How the results depend on the processing

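Members called stayed within 1.5-fold of the reported number except as follows. For LPS the number fell from 4 to 2 with library size alone and to 0 at a 2-fold cutoff, and ranged from 2 to 4 when 1 library was left out. At 32 µM it fell from 1 to 0 with DESeq2 size factors, DESeq2 itself, a filter at a mean of 5 CPM, no filter, edgeR on the 4 libraries compared and a 2-fold cutoff, and ranged from 0 to 1 when 1 library was left out. For 32 µM against resting cells it fell from 4 to 2 with library size alone and to 1 at a 2-fold cutoff. The cause was not tested beyond the position of these genes near the cutoff. Library size alone moved the median of all genes to -0.20 under LPS and to -0.18 for 32 µM against resting cells.

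No called value changed sign. With the short-transcript score in the fit, Mt1 turned to -0.20 under LPS and -0.34 against resting cells, Mt2 to -0.10 against resting cells, and at 3.2 µM Mt1 to -0.071 and Mt2 to -0.023. Leaving out 1 library, with a condition's single remaining library taken to vary like the rest, gave for Mt1 -0.0083 to 1.24 under LPS, -1.03 to 0.36 at 32 µM, -0.34 to 0.56 at 10 µM, -0.53 to 1.06 against resting cells and -1.22 to 0.16 between 32 and 10 µM. For Mt2 it gave -0.95 to 0.28 at 32 µM, -0.23 to 0.64 at 10 µM, -0.25 to 1.13 against resting cells and -1.23 to 0.026 between 32 and 10 µM, and for Slc39a14 -0.024 to 0.19 in the last of these. Leaving out both libraries with epithelial reads, chosen after seeing the data, gave -0.34 for Mt1 and -0.23 for Mt2 at 10 µM, and 0.16 for Mt1, 0.026 for Mt2 and -0.024 for Slc39a14 between 32 and 10 µM. Mtf1 at 3.2 µM, reported as 0.0012, was -0.0023 with DESeq2 size factors and with DESeq2, -0.0067 with library size alone, -0.013 without a filter, -0.0032 with a mean of 5 CPM, -0.00072 on 4 libraries, and -0.021 to 0.023 with 1 library left out.

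With the replicate block, members called were unchanged at 4, 1, 0, 0, 4 and 0 for LPS, 32, 10 and 3.2 µM, 32 µM against resting cells and 32 against 10 µM, and all genes called were 4097, 616, 174, 0, 3910 and 225, against 3995, 592, 122, 0, 3847 and 187. Replicate differences correlated between 0.303 and 0.830 among DMSO and the 3 doses, and between -0.417 and -0.172 in the 4 pairs with DMSO + LPS. Since not every pair was above 0.1, the numbers were not taken to pair the libraries.

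With 2 libraries per condition, the spread within DMSO, 10 µM and 32 µM limits what can be seen for Mt1 and Mt2, not the number of reads, which was at least 5595 counts for each gene in every library.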

Other observations

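Genes of copper handling, which metallothioneins also touch, were called for 2 of 10 tested genes under LPS, where 28.2% of all genes were, and for 0 by edgeR's quasi-likelihood test at 32 µM, where 4.18% were. These counts do not set the list apart. Slc31a1 (CTR1), the copper importer, stood at 91.3 and 96.1 CPM in DMSO and at 168 and 162 CPM in DMSO + LPS (log2 change 0.82, SE 0.04, adjusted p = 1.75e-06 by edgeR). Slc31a2, its endosomal relative, rose from 21.3 and 22.3 CPM to 184 and 185 CPM (log2 change 3.08, SE 0.05, adjusted p = 2.78e-09 by edgeR). At 32 µM both lay below DMSO + LPS, at 142 and 145 CPM for Slc31a1 and 144 and 141 CPM for Slc31a2, with log2 changes of -0.20 and -0.37 that were smaller than 1.5-fold (adjusted p = 0.0227 and 0.00107 by edgeR). Atox1, a copper chaperone, spread within conditions, at 97.5 and 61.7 CPM at 10 µM and 87.8 and 45.9 CPM at 32 µM.

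Of 4 secreted metal binders, 2 were tested, and both were called higher under LPS and lower at 32 µM, where 28.2% and 4.18% of all genes were called in either direction. Lcn2, which binds iron-loaded siderophores, had 0 and 1 counts in DMSO, 57.5 and 58.4 CPM in DMSO + LPS, 33.4 and 27.0 CPM at 10 µM and 15.6 and 14.8 CPM at 32 µM (log2 change at 32 µM -1.93, SE 0.12, adjusted p = 3.13e-05 by edgeR). S100a8, a subunit of the zinc- and manganese-binding calprotectin, had 6.44 and 6.26 CPM in DMSO + LPS and 2.39 and 1.39 CPM at 32 µM (log2 change -1.74, SE 0.38, adjusted p = 0.0257 by edgeR). Its partner S100a9 was at 0 except in replicate 1 at 10 µM, at 0.344 CPM, the library that also held Ltf at 1.35 CPM, Slc30a2 at 0.107 CPM and the most epithelial reads.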
